A study of Homo sapiens with 6 samples.

Results

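The subject here is a set of immediate early transcription factors: the AP-1 proteins FOS, FOSB, JUN, JUNB and JUND, the zinc finger factors EGR1, EGR2 and EGR3, and the orphan nuclear receptors NR4A1 and NR4A2. Their members are all probe sets that the array's annotation gives exactly 1 of these gene symbols. That left 21 of the 54613 probe sets tested, covering 9 of the 10 genes. EGR2 was not analysed here.

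THP1 is a human monocytic line derived from acute myeloid leukaemia. Of 6 samples profiled on Human Genome U133 Plus 2.0 arrays, 3 had grown on a surface carrying Dll4-Fc, in which Delta-like 4, a ligand of Notch receptors, is joined to an immunoglobulin Fc region, and 3 are labelled untreated. All were harvested at 48 hours. The series title concerns what Notch activation does to homeostasis and differentiation of leukaemia cells. The stated coating is 30 nM in the protocol, which calls the control vehicle, whereas the sample labels give 60 nM and call it untreated. No label names a control coated with Fc alone, everything rests on 1 cell line, and nothing in the labels shows that replicates were independent cultures. The p-values then cover the spread between these arrays alone, which may be technical.

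Immediate early genes are transcribed within minutes of a signal without needing new protein synthesis, and their mRNAs are usually short-lived. Mitogen-activated kinases reach them through serum response factor with its ETS partners and through CREB-type factors bound to cyclic AMP response elements (CRE). FOS and JUN proteins pair through leucine zippers to form AP-1, EGR factors bind GC-rich sites and are restrained by NAB corepressors, and NR4A receptors act without a known hormone. In monocytes AP-1 and EGR factors are known for roles in macrophage differentiation.

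The sequence just before the start of transcription is shown from RefSeq (GRCh38.p14) for JUN, JUND, FOS and EGR1. JUN and JUND rose, and FOS and EGR1 did not pass the test. CRE-type and serum response sequences upstream of the start are classical entry points of the inducing signals, and some can lie outside the stretch shown. Each run is the 250 bases before the start, 5′ to 3′ on the gene's own strand, and capitals mark motif matches on either strand.
JUN, minus strand of chr1:58784048-58784297: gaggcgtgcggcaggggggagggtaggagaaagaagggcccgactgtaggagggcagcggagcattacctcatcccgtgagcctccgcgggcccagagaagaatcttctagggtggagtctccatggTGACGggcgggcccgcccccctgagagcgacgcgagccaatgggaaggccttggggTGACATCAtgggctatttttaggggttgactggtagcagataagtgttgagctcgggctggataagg
JUND, minus strand of chr19:18281623-18281872: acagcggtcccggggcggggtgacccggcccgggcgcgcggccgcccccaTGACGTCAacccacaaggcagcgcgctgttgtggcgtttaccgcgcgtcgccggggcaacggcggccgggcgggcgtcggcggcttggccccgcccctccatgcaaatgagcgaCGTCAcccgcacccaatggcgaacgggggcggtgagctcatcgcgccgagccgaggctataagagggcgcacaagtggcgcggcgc
FOS, plus strand of chr14:75278578-75278827: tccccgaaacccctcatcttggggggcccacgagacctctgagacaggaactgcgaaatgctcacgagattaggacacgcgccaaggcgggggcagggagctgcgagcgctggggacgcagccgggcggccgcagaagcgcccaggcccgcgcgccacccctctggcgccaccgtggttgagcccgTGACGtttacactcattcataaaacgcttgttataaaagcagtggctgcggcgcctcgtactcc
EGR1, plus strand of chr5:138465229-138465478: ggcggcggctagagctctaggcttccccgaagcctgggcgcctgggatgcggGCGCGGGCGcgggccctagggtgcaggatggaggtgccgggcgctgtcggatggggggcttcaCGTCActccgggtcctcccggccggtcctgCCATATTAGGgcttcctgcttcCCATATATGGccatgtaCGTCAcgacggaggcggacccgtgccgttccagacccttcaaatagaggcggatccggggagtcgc

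Both strands of these windows were searched for the full CRE (TGACGTCA), its short form (TGACG, which the full CRE contains), the AP-1-like site of the JUN promoter (TGACATCA), the general AP-1 site (TGANTCA), the CArG box to which serum response factor binds, an EGR site (GCGNGGGCG) and the site of the Notch-controlled factor RBPJ (CGTGGGAA). JUN held TGACATCA at 67 to 60 bases before its start, a sequence found in 2.37% of the 35116 promoter windows. JUND held a full CRE at 200 to 193 bases before its start, found in 1.65% of windows. EGR1 held 2 CArG boxes, at 105 to 96 and 83 to 74 bases, a motif found in 1.16% of windows. It also held an EGR site at 198 to 190 bases (8.41% of windows). FOS held a single short CRE sequence (TGACG) at 64 to 60 bases, which occurs in 21.2% of windows. The other printed windows held it too: JUN at 123 to 119 bases and EGR1 at 135 to 131 and 66 to 62 bases. JUND held it within its full CRE and at 86 to 82 bases. Neither the general AP-1 site (6.57% of windows) nor the RBPJ site (0.72%) was matched in any of the 4 windows. Bases further upstream were not searched, so a motif not matched here, such as a CArG box of FOS, may lie beyond the window. JUNB and FOSB each held 1 short CRE sequence, and the NR4A1 windows held no match. EGR3 and NR4A2 are named only.

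On Dll4-Fc, JUN and EGR3 were 3.26-fold and 3.50-fold higher on their probe sets with the highest signal and JUND was 1.30-fold higher, while no probe set of FOS, FOSB, JUNB, EGR1, NR4A1 or NR4A2 passed the test. Of 21 probe sets 6 rose, against 7.21% of all probe sets tested, and 4 of those 6 belong to JUN. None fell (0 by limma, and 0 at an unadjusted p under 0.05, where 9 were higher), against 9.26% of all probe sets (16.5% passed either way). Most members were brighter than the median probe set. In a fit of probe sets at or above the median signal alone, 6 of 16 members rose, against 3979 of 27307 probe sets. There 0 members fell, against 5891 of those probe sets. With 1 probe set a gene, that with the highest mean, 3 of 9 genes rose and 0 fell, against 10.1% and 12.1% of 19775 genes (22.1% either way). The groups did not overlap for 8 of the 21 probe sets, against 33.2% of all probe sets, a share close to that background. The median difference was 0.08 on the log2 scale over the 21 probe sets and -0.02 over all probe sets. The members were chosen with earlier results of these data known, so these counts and medians describe the set and test nothing.

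Here a probe set's intensity is the deposited linear RMA value, a difference is the Dll4-Fc mean minus the untreated mean of log2 values with its standard error (SE, n = 3 arrays per group), and a gene rose or fell when the p-value from limma, adjusted over all probe sets by the Benjamini-Hochberg method, was under 0.05. Intensities of different probe sets cannot be set against each other. Where the untreated mean was below 5.70 on the log2 scale, the median of all probe sets, the signal was not shown to lie above background and the size of a fold is uncertain; such folds are marked as over a dim baseline. Probe sets whose names end in _s_at, _x_at or _a_at can bind several transcripts, and 15 of the 21 are of this kind.

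**Figure D1:**
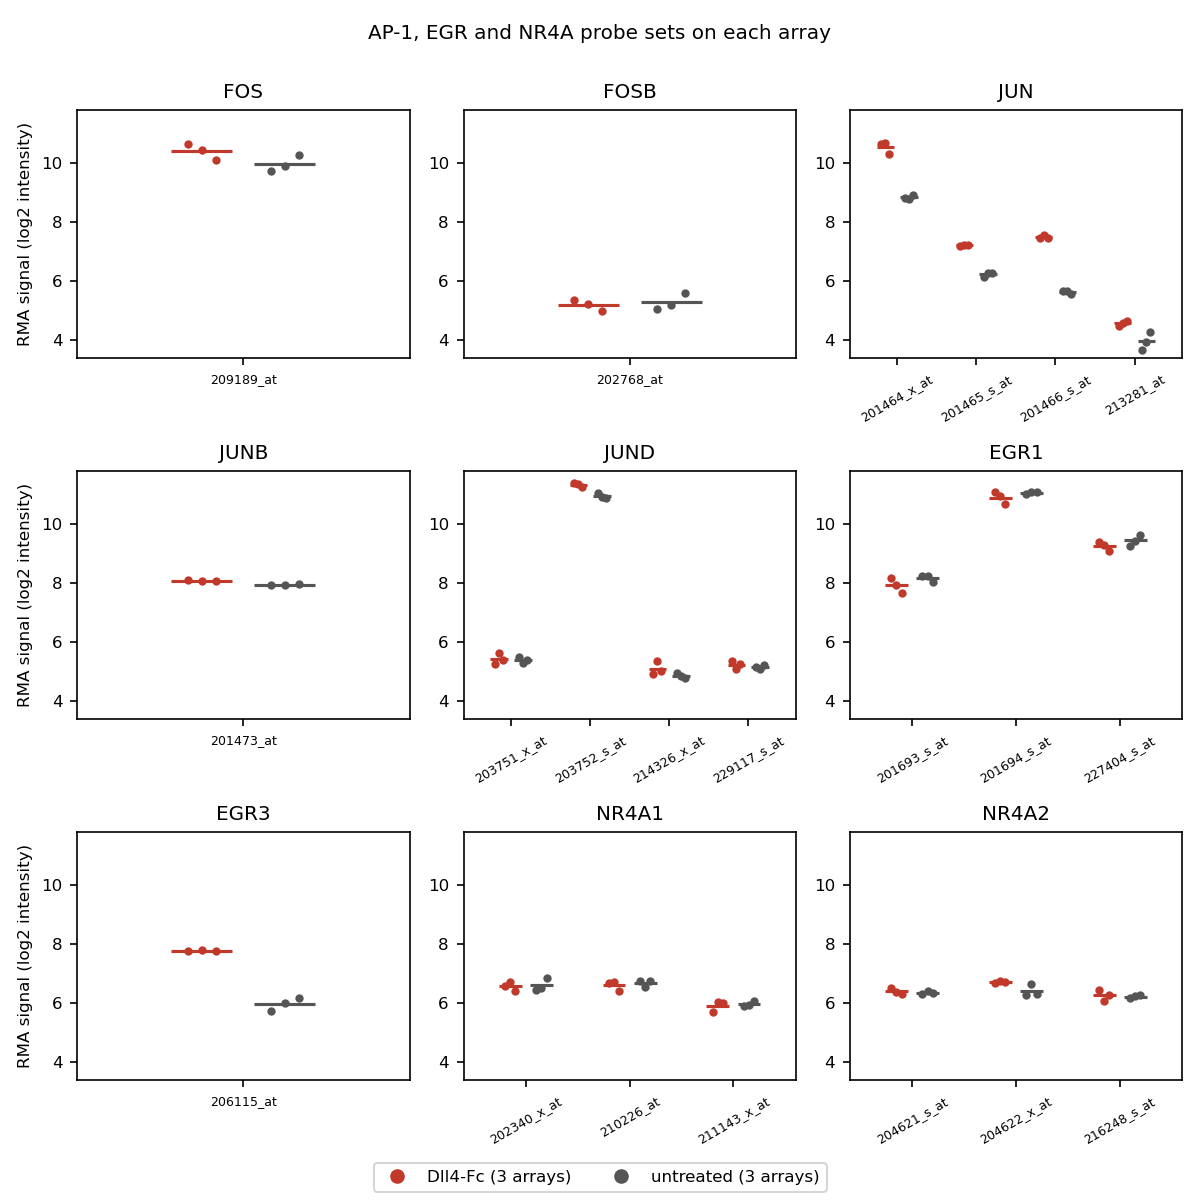
RMA signal (log2 intensity) of each of the 21 probe sets on each array, 1 panel a gene, with Dll4-Fc arrays in red on the left of each pair, untreated arrays in grey on the right, and a bar at each group mean. The groups stand apart for the 4 JUN probe sets, for EGR3 and for the brightest JUND probe set, and they overlap for FOS, FOSB, EGR1 and NR4A1.

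JUN encodes the AP-1 subunit that can pair with itself or with FOS proteins. Its probe set 201464_x_at read 1615, 1642 and 1261 on the Dll4-Fc arrays, against 448, 444 and 483 on the untreated arrays. Every Dll4-Fc array was above every untreated array, and Dll4-Fc replicate 3 was the lowest of its group. The difference was 1.71 ± 0.11 (3.26-fold, adjusted p = 3.37e-05). Probe set 201466_s_at read 178, 188 and 176 on Dll4-Fc, against 50.7, 51.2 and 47.4 untreated, a difference of 1.86 ± 0.07 (3.63-fold over a dim baseline of 5.64, adjusted p = 1.15e-06). Here the arrays of each group lay close together. Probe set 201465_s_at read 147, 149 and 151 on Dll4-Fc and 71.3, 77.8 and 77.0 untreated, a smaller difference of 0.99 ± 0.07 (1.98-fold, adjusted p = 4.28e-05).

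The 1 JUN probe set that is not of the shared kind, 213281_at, was dim. It read 22.5, 24.0 and 25.0 on Dll4-Fc, against 12.8, 15.5 and 19.4 untreated, so that only 25.7% of probe sets had a lower mean signal. The groups did not overlap, and the difference was 0.60 ± 0.14 (1.52-fold, adjusted p = 0.0215). This call was lost without Dll4-Fc replicate 1, 2 or 3 or without untreated replicate 2 (adjusted p = 0.0535, 0.0673, 0.0741 and 0.0683). All 4 JUN probe sets therefore rose, by 0.60 to 1.86, and the size of the rise differed between them.

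JUND, a JUN relative present in resting cells, rose on 1 of its 4 probe sets. That one, 203752_s_at, has the highest signal of the 4 and read 2683, 2597.5 and 2450.2 on Dll4-Fc, against 2134, 1945 and 1879 untreated. The groups did not overlap, and the difference was 0.38 ± 0.08 (1.30-fold, adjusted p = 0.0117). Without Dll4-Fc replicate 1 it was 0.35 with an adjusted p of 0.056. The other 3 JUND probe sets had mean log2 signals below the median of all probe sets and differed by 0.03 to 0.24 without passing, and the mean over all 4 gave 0.18 (adjusted p = 0.0699), so the JUND call rests on 1 probe set.

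JUNB, which often opposes JUN in growth control, was measured by 1 probe set. It read 279, 266 and 269 on Dll4-Fc, against 246, 244 and 249 untreated. The groups did not overlap, but the difference was small, 0.14 ± 0.06 (adjusted p = 0.172). After cyclic loess between arrays JUNB gave 0.21 and passed (adjusted p = 0.0482).

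FOS, the AP-1 subunit that must pair with a JUN protein, varied between arrays of the same group, with log2 SDs of 0.28 on Dll4-Fc and 0.27 untreated (n = 3 each). Its probe set read 1610.4, 1393.5 and 1101 on Dll4-Fc, against 849, 951 and 1229 untreated. Dll4-Fc replicate 3 lay below untreated replicate 3, so the groups overlapped. The difference was 0.44 ± 0.17 (adjusted p = 0.133), with an unadjusted 95% interval of 0.05 to 0.83. FOS passed without untreated replicate 3 (0.59, adjusted p = 0.0439) and with array weights (0.58, adjusted p = 0.0201). FOSB, a FOS relative, was dim, reading 40.7, 37.8 and 32.1 on Dll4-Fc and 33.5, 36.7 and 48.4 untreated. Its difference was -0.09 ± 0.15 (adjusted p = 0.771), and its groups overlapped.

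EGR1, a zinc finger factor induced by growth factors and by macrophage differentiation signals, was bright on all 3 of its probe sets, and none passed. The brightest, 201694_s_at, read 2153, 1977 and 1636 on Dll4-Fc, against 2075, 2174 and 2193 untreated. Dll4-Fc replicate 3 was the low array and the groups overlapped. The difference was -0.17 ± 0.10 (adjusted p = 0.354, 95% interval -0.41 to 0.07). With 1 array left out it lay between -0.26 (without Dll4-Fc replicate 1) and -0.06 (without Dll4-Fc replicate 3). Probe sets 201693_s_at and 227404_s_at differed by -0.26 ± 0.13 and -0.19 ± 0.12 (adjusted p = 0.252 and 0.351).

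EGR3, a relative of EGR1, behaved otherwise. Its probe set 206115_at, not of the shared kind, read 217, 223 and 219 on Dll4-Fc, against 53.5, 63.8 and 72.4 untreated. The Dll4-Fc arrays agreed closely, and all lay above the untreated arrays. The difference was 1.81 ± 0.11 (3.50-fold, adjusted p = 2.32e-05).

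No probe set of the NR4A receptors NR4A1 and NR4A2 passed in the analysis as reported. NR4A1 (Nur77), which is tied to myeloid differentiation and to lymphocyte activation, differed by -0.08 ± 0.10 on its brightest probe set, 210226_at (102, 106 and 85.4 on Dll4-Fc, against 108, 93.6 and 107 untreated, adjusted p = 0.716). On its other 2 probe sets the differences were -0.04 and -0.06, and the groups overlapped on all 3. NR4A2 (Nurr1), best known from dopamine neurons and also inducible in macrophages, read 104, 107 and 104 on Dll4-Fc and 77.6, 99.7 and 80.3 untreated on 204622_x_at. Those groups did not overlap, with untreated replicate 2 close to the Dll4-Fc arrays, and the difference was 0.30 ± 0.10 (adjusted p = 0.0842). It passed without untreated replicate 2 (0.41, adjusted p = 0.0151) and without dim probe sets (adjusted p = 0.0493). The other 2 NR4A2 probe sets both differed by 0.04.

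**Figure D2:**
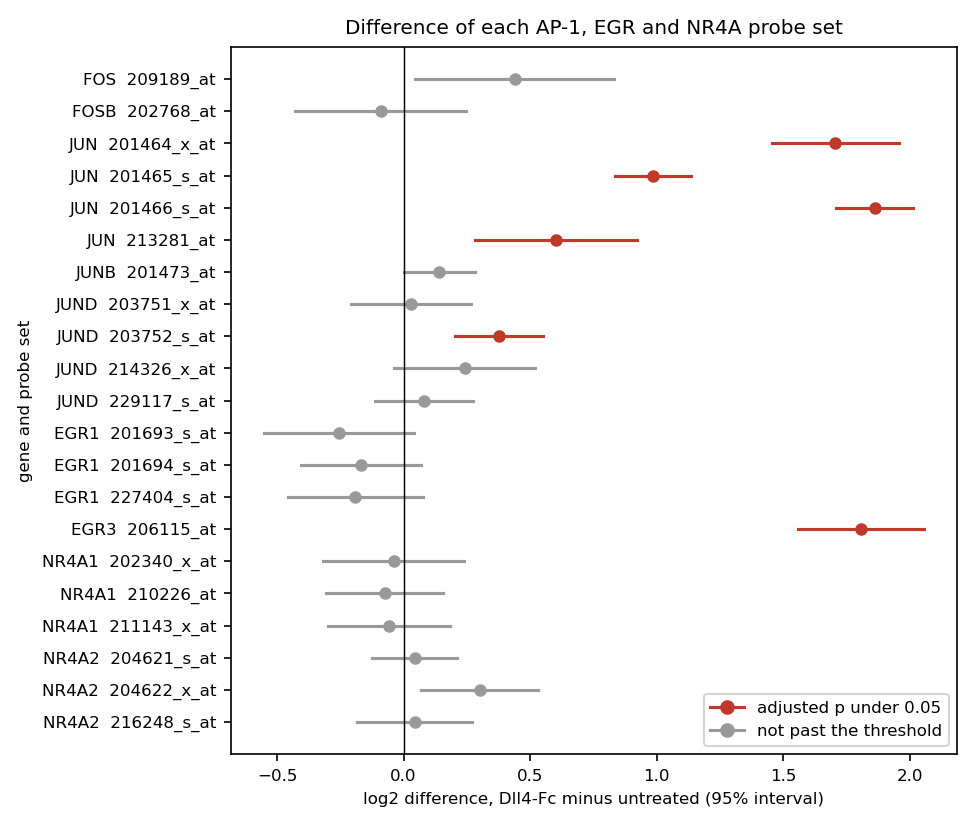
Log2 difference (Dll4-Fc minus untreated, horizontal axis) of each of the 21 probe sets with its unadjusted 95% interval, red where the adjusted p was under 0.05. JUN and EGR3 reach 1.86 and 1.81, JUND reaches 0.38, and the EGR1 and NR4A1 points lie between -0.26 and -0.04.

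Array by array, Dll4-Fc replicate 3 was the lowest of its group in 11 of the 21 probe sets, FOS, FOSB and the 3 EGR1 probe sets among them, against 34.3% of all probe sets. Dll4-Fc replicate 1 was the highest of its group in 10 of the 21, against 27.6% of all. Untreated replicate 1 was the lowest of its group in 12 of the 21, against 30.2% of all, and untreated replicate 3, without which FOS passed, was the highest in 12, against 36.7% of all. The part of this in the results was not tested.

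By the root mean square difference between profiles centred on their own mean over the 6 arrays, the probe sets most like JUN 201466_s_at were those of the protease cathepsin H (CTSH, 0.03), of GLIPR1 (0.04) and a dim one of osteopontin (SPP1, 0.04). Most like EGR3 were probe sets of the platelet-activating factor receptor PTAFR (0.06), of the stress-induced NUPR1 (0.08) and of GLIPR1 (0.09). With 2 groups of 3 arrays this measure mainly reflects a rise of like size: those 6 probe sets differed by 1.73 to 1.88.

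Relatives with which the AP-1 proteins pair or compete changed in both directions. Of 12 measured partners and relatives 6 rose and 2 fell, where 10.1% of all genes rose and 12.1% fell, each gene by its probe set with the highest mean. MAF, a macrophage leucine zipper factor, rose by 4.36 ± 0.07 (20.5-fold, adjusted p = 5.27e-08) and the small MAF protein gene MAFF by 3.04 ± 0.09 (8.22-fold), both over dim baselines (5.27 and 5.46). BATF2, an interferon-induced JUN partner, rose 2.54-fold (1.35 ± 0.12). ATF3, a stress-induced factor, read 575, 586 and 568 on Dll4-Fc against 58.1, 50.1 and 38.9 untreated, 11.9-fold higher over a dim baseline (5.60). Its dim probe set not of the shared kind gave 0.03 (adjusted p = 0.917). FOSL2, a FOS relative, fell by 0.54 ± 0.08 and BATF, a JUN partner in lymphocytes, by 0.32 ± 0.06. With the mean of its probe sets FOSL2 gave -0.19 (adjusted p = 0.0921). The median difference of this list was 0.22, against -0.01 over all genes.

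Among 6 relatives and partners of the EGR and NR4A factors 2 rose and 1 fell, where 10.1% of all genes rose and 12.1% fell. NAB2, a corepressor that binds EGR proteins and is itself an EGR target, read 141, 181 and 184 on Dll4-Fc against 74.2, 84.5 and 90.7 untreated, 2.02-fold higher (1.01 ± 0.12, adjusted p = 0.00101). Its relative NAB1 differed by -0.03 ± 0.06 without passing. NR4A3, the third NR4A receptor, was dim and rose by 0.51 ± 0.10 (adjusted p = 0.0109). RXRB, a nuclear receptor with which NR4A1 and NR4A2 can pair, fell by 0.29 ± 0.08 (adjusted p = 0.0445). With 1 array left out the RXRB call held only without untreated replicate 1 (otherwise adjusted p = 0.0878 to 0.136). It was also lost with the replicate block, cyclic loess, the mean of probe sets and without shared probe sets. The median was 0.16.

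Of 19 measured genes on the kinase, SRF and CREB route 5 rose and 3 fell, with a median of 0.02. Over all genes 10.1% rose and 12.1% fell. CREM, a CREB relative, rose 2.40-fold (1.27 ± 0.11), and the kinase genes MAP2K1 by 0.56 ± 0.06, RPS6KA1 by 0.42 ± 0.07 and RPS6KA3 by 0.40 ± 0.08. Without Dll4-Fc replicate 1 RPS6KA3 missed the threshold (0.39, adjusted p = 0.0545), when 3 of the 19 rose. SRF itself differed by 0.02 ± 0.06. RPS6KA5, a kinase of CREB and histone H3, fell by 0.65 ± 0.11, the SRF coactivator gene MRTFA by 0.41 ± 0.07 and MAPK8, which encodes the JUN kinase JNK1, by 0.30 ± 0.07. The MAPK8 call was lost without Dll4-Fc replicate 1 or 2 or untreated replicate 1 or 2 (adjusted p = 0.0749 to 0.0958).

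Of 23 other immediate early genes measured 10 rose, 2 fell and 11 did not pass, with a median of 0.19. Over all genes 10.1% rose and 12.1% fell. SGK1, a survival kinase, read 934, 989 and 861 on Dll4-Fc against 80.7, 80.8 and 72.6 untreated, 11.9-fold higher (3.57 ± 0.08). DUSP1, a phosphatase of the kinases above, rose 5.07-fold, KLF4, a monocyte differentiation factor, 2.87-fold and IER3, a survival gene, 2.57-fold over a dim baseline. IER2 and ZFP36 differed by -0.07 ± 0.07 and -0.05 ± 0.06 without passing. The matricellular genes CCN2 and CCN1 fell by 0.62 ± 0.11 and 0.45 ± 0.11. Both were dim, and with 1 array left out CCN1 passed only without untreated replicate 3 (otherwise adjusted p = 0.0566 to 0.0999).

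Of 17 genes known from textbooks as AP-1 targets 13 rose and 0 fell by limma (15 and 0 at an unadjusted p under 0.05), with a median of 1.28. Over all genes 10.1% rose and 12.1% fell. The list was chosen with earlier results of these data known, so its count and median describe these genes and test nothing about AP-1. SPP1 rose 150.7-fold (7.24 ± 0.14) and VIM, an intermediate filament of macrophages, 11.2-fold (3.49 ± 0.07). The haem-degrading enzyme gene HMOX1 rose by 4.95 ± 0.14 (30.8-fold) and the collagenase gene MMP1 by 3.51 ± 0.10 (11.4-fold), both over dim baselines (5.61 and 4.12). Without probe sets of the shared kind 6 of 9 rose. Many other factors also control these genes, and what part AP-1 had in their levels was not tested.

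**Figure D3:**
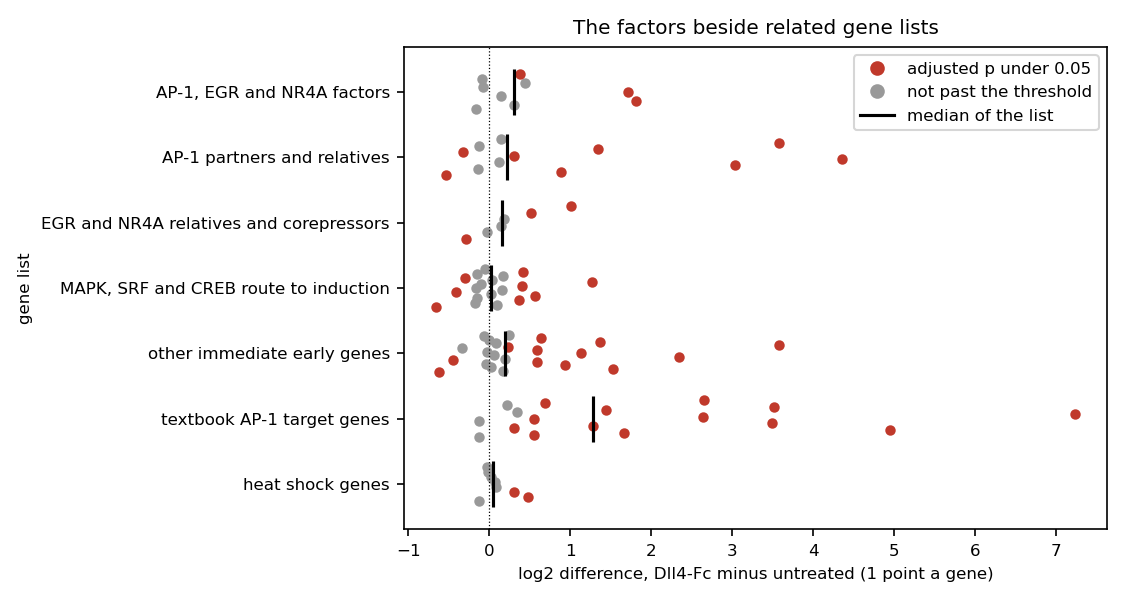
Log2 difference (Dll4-Fc minus untreated) of each gene, by its probe set with the highest mean, in the set of factors and in 6 related lists, red where the adjusted p was under 0.05, with a bar at the median. The medians are 0.30 for the factors, 1.28 for the AP-1 targets and between 0.02 and 0.22 for the other lists. The lists were chosen with earlier results of these data known.

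As a check of treatment and material, the Notch target HES1 rose 7.65-fold (2.93 ± 0.19) over a dim baseline, on a probe set of the shared kind. The reference genes ACTB and GAPDH differed by 0.14 ± 0.06 and 0.06 ± 0.06 without passing (adjusted p = 0.175 and 0.610 by limma). For both, the groups did not overlap. Of 9 monocytic markers 5 rose and 1 fell, alongside the gene groups above, and their part in those results was not tested. For this and the next counts, 10.1% of all genes rose and 12.1% fell (22.1% either way). The summed intensity of the 9 was 21522 to 23714 on Dll4-Fc and 9244 to 9801 untreated. CD14, the lipopolysaccharide coreceptor of monocytes, averaged 1569 on Dll4-Fc and 32.5 untreated (5.64 ± 0.20, 49.9-fold over a dim baseline). Lysozyme (LYZ) averaged 14998 and 3748, the growth factor receptor gene CSF1R 711 and 211 (3.37-fold) and the integrin gene ITGAM 801 and 244 (3.27-fold) on Dll4-Fc and untreated, while the granule enzyme gene MPO averaged 58.6 and 100.5 and fell by 0.79 ± 0.11. Without probe sets of the shared kind ITGAM gave -0.12 (adjusted p = 0.621). Of 13 markers of T, B, erythroid, epithelial, stromal and endothelial cells 0 passed by limma (1 was higher and 1 lower at an unadjusted p under 0.05, and leaving out dim probe sets made 1 fall and averaging probe sets made 1 rise), 10 lay below the median signal, and their summed intensity was 632 to 700 on Dll4-Fc and 642 to 683 untreated. Of 8 heat shock genes measured 2 rose, BAG3 by 0.47 ± 0.08 and HSPH1 by 0.30 ± 0.07, and 0 fell (also 0 at an unadjusted p under 0.05, and 1 with a trended robust prior). The share that passed either way, 25%, was close to the 22.1% of all genes. The HSPH1 call was lost when any 1 Dll4-Fc array or untreated replicate 1 was left out (adjusted p = 0.0529 to 0.0874). As a sign of RNA integrity, ACTB had a 3′ minus 5′ log2 signal of 0.67 ± 0.03 on Dll4-Fc and 0.72 ± 0.05 untreated (SD, n = 3 each, exact permutation p = 0.2, 2-sided, with 0.1 the smallest possible).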

How the data were processed

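Total RNA, 5 ng a sample, was amplified (NuGEN Ovation) and biotin-labelled, per the labels' protocols. The values are linear intensities for each probe set on each array, made by the authors with RMA (background correction, quantile normalization, probe summary), per the submitters' processing notes; its version was not given there. RMA compresses small signals, so dim probe sets show muted differences, and forcing 1 distribution on all arrays hides a change in total RNA per cell. In a culture, fewer cells expressing a gene and less RNA per cell cannot be told apart. Array medians lay between 50.6 and 52.7.

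Intensities were log2 transformed here, since the table is not on the log2 scale. After leaving out 62 control probe sets, 54613 were tested, of which 41091 had exactly 1 gene symbol and 1801 several. The contrast was fitted by lmFit and eBayes of limma 3.58.1 under R 4.3.3 (default prior, 2-sided, 4 residual degrees of freedom), adjusted by Benjamini-Hochberg over all probe sets with 0.05 as the threshold. The number of arrays, 3 per group, limits the precision; the median SE was 0.09. Arrays of 1 group correlated at r = 0.996 to 0.998 and arrays of different groups at 0.984 to 0.988. The procedure was tested on simulated data.

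The members and gene lists were chosen with earlier results of these data known. Every member gene is described, with probe sets that did not pass given in part by range, and of each list up to 4 genes in each direction with the largest differences among those that passed. Genes of the lists named as not passing (NAB1, SRF, IER2 and ZFP36) were chosen after their values were seen. HES1, ACTB and GAPDH were fixed checks. Likeness was taken for the 2 passing probe sets with the largest differences, naming the 3 nearest probe sets of other genes. Alternatives were a block for the replicate number, leaving out each array, cyclic loess, median centring, a trended robust prior, array weights, leaving out dim probe sets (mean below the median of 5.70 on the log2 scale) or shared ones, and fits over 19775 genes (1 probe set a gene, the one of highest mean, or the mean of probe sets).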

Additional observations from a re-analysis of the deposited data

How the results depend on the processing

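Of the 21 probe sets, 6 rose in the analysis as reported and 4 to 7 when 1 array was left out, 2 of 6 without shared probe sets, 3 of 9 with 1 probe set a gene and 2 of 9 with the mean of probe sets. None fell under any alternative. The 3 brightest JUN probe sets and EGR3 passed under every alternative that held them, except that the fits over genes hold 1 value for JUN. Of 271 comparisons of a member's value with an alternative, 6 lost and 5 gained the call, 0 reversed it, and all are given above. Leaving out dim or shared probe sets gives no value for 5 and 15 of the 21.

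Over all probe sets 3937 were higher and 5059 lower, with 2164 and 3121 without shared probe sets, 2298 and 2964 with 1 probe set a gene, 2110 and 2739 with the mean of probe sets. Leaving out 1 array gave 2906 to 5629 lower, with 2927 and 2906 without Dll4-Fc replicates 1 and 2, and 3358 and 2977 without untreated replicates 1 and 2. Cyclic loess turned the share of calls that were higher to 54.2%, against 43.8%. With the replicate block 3024 were higher and 3465 lower, 6 members rose, the call of RXRB was lost (0 of the EGR and NR4A relatives fell), as were those of MAPK8 and HSPH1 (1 heat shock gene rose), and no member's call changed. The labels do not say that a number marks a shared culture, deviations of same-numbered arrays correlated at -0.02, -0.14 and -0.13, and 0 of 6 arrays matched their own number best.

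With the mean of probe sets 1 AP-1 relative fell (2 as reported), 0 EGR and NR4A relatives fell (1), 2 monocytic markers fell (1) and 1 marker of another cell type rose (0). Without dim probe sets 1 of the 4 EGR or NR4A relatives still held rose (2 of 6 as reported), and 0 of 20 other immediate early genes fell (2 of 23). NR4A3, CCN1 and CCN2 were themselves dim and were left out of that fit, so they could not pass there. In it 2 of 8 monocytic markers and 1 of 3 markers of another cell type fell. Without shared probe sets 0 EGR and NR4A relatives fell, 6 AP-1 targets rose (13), 0 heat shock genes rose (2) and 3 monocytic markers rose (5). There RPS6KA5 gave -0.59 (adjusted p = 0.0882) and HSPH1 0.09 (0.569). ITGAM gave -0.12 on another probe set, a change of sign that did not pass. Cyclic loess left 0 EGR and NR4A relatives lower. A trended robust prior made 1 heat shock gene and 2 monocytic markers fall, and array weights and 1 probe set a gene 2 monocytic markers. When 1 array was left out, 3 to 5 genes of the kinase, SRF and CREB route rose, 0 to 1 EGR and NR4A relatives, 1 to 3 other immediate early genes and 1 to 2 monocytic markers fell, and 1 to 2 heat shock genes rose. The alternatives that leave out arrays or probe sets have less to test; otherwise the cause was not tested.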
